A study of Sus scrofa with 6 samples.

Results

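The extracellular matrix is the secreted scaffold around cells. It is built from collagens, laminins, proteoglycans and adhesive glycoproteins, is cross-linked and cut by its own enzymes, and is read by receptors on the cell surface. In the developing cerebral cortex the matrix has several sources. Fibroblasts of the meninges, the membranes that cover the brain, make fibrillar collagens and small leucine-rich proteoglycans. Radial glial endfeet, meninges and vessels share a laminin-rich basement membrane, and neural cells make versican and its link protein, which bind hyaluronan. The genes described here are those of this scaffold. They were picked by symbol, through a pattern that takes collagens, laminins, nidogens, fibronectin, fibrillins, fibulins, small proteoglycans, lecticans and link proteins, thrombospondins, matrix proteases and their inhibitors, collagen-modifying enzymes, syndecans and glypicans. Measured values did not enter the pattern, although FNDC1 and the other genes were listed in it with earlier results of these arrays known. It found 63 genes on 121 probe sets, out of 6765 genes with a symbol of their own and 23999 probe sets tested. Each gene is represented by its brightest probe set over all embryos, and 33 of the 63 have more than 1.

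The study compared the cerebral cortex of pig embryos before and after the cortical surface begins to fold. Total RNA of 3 embryos at embryonic day 80 (E80, folded cortex) and of 3 embryos at embryonic day 60 (E60, smooth cortex) was hybridised to 1 Affymetrix Pig Genome Array per embryo, and no treatment or genetic change is given in the labels. Values are MAS5 signals, 1 per probe set and embryo, and differences are log2 differences of E80 minus E60 from limma, with p-values adjusted over all 23999 probe sets by Benjamini-Hochberg. The words rose and fell are kept for genes whose adjusted p was under 0.05. The embryos are described as litter mates, the litter of each is not given in the sources used here, and litter and day cannot be told apart, so the p-values measure only the spread between these embryos. Levels of different genes were not compared, since each probe set has its own response. Because the tissue was measured in bulk, fewer cells of a type and less RNA per cell cannot be told apart.

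The E80 embryos differed from one another. E80 embryo 2 had the highest E80 signal in 33 of the 63 matrix genes (52.4%), against 40.7% of all probe sets. E80 embryo 1 had the lowest in 32 of the 63 (50.8%), against 8511 of the 23999 probe sets. Over the 63 genes the median log2 distance from the other E80 embryos was -0.30 for embryo 1, 0.29 for embryo 2 and 0.01 for embryo 3. The E60 embryos differed too. E60 embryo 2 had the highest E60 signal in 29 of the 63, against 32.8% of all probe sets. Median log2 distances at E60 were smaller, at -0.03 for embryo 1, 0.10 for embryo 2 and -0.05 for embryo 3. In E80 embryo 3 the choroid plexus marker transthyretin (TTR) had a signal of 4475, against 15.1 and 6.25 in E80 embryos 1 and 2 and 1.47 to 3.70 at E60. The median signal of the arrays was 55.6 to 59.5 at E80 and 60.9 to 64.8 at E60, and the median log2 difference over all probe sets was -0.05, or 0.06 with all array medians made equal. Of 12 cortical markers listed, 1 was measured, the neuronal gene STMN2, which was strong in all embryos (4108 to 4262 at E80 and 3351 to 3856 at E60). A gene of neurons in general does not check that the tissue is cortex.

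Over the 63 genes, 1 rose and 1 fell, against 1.95% of all probe sets called in either direction. FNDC1, a secreted protein with fibronectin type III domains, rose, and thrombospondin 1 (THBS1), an adhesive glycoprotein that activates latent TGF-beta and that astrocytes secrete, fell. These are 1.59% each, against 0.933% of all probe sets that rose and 1.01% that fell, and 1.49% and 1.05% of all genes by their brightest probe set, so the share called was close to the background. In 5 genes all E80 embryos lay above all E60 embryos (7.94%, against 9.25% of all probe sets and 12.8% of all genes by their brightest probe set). In 10 all lay below (15.9%, against 14.4% of all probe sets and 14.7% of all genes). Together these are 15 genes (23.8%, against 23.6% of all probe sets and 27.5% of all genes). The unadjusted p was under 0.05 in 16 genes (25.4%, against 18.0% of all probe sets and 1400 of the 6765 genes by their brightest probe set). The log2 difference was below 0 in 39 of 63 (61.9%), against 55.7% of all probe sets and 3388 of the 6765 genes. The median log2 difference of the matrix genes was -0.14, with a range of -1.52 (decorin) to 1.30 (FNDC1). That median depended on scaling, at -0.050 after quantile normalization, -0.024 with all array medians made equal and -0.064 with 32 added to each signal. Of the 63, 46 are among the brightest 66% of probe sets and 38 had, on the day with the higher mean, more than the median probe set's signal of 61.6. Standard errors ran from 0.09 to 1.21, the wide ones in dim genes.

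**Figure D1:**
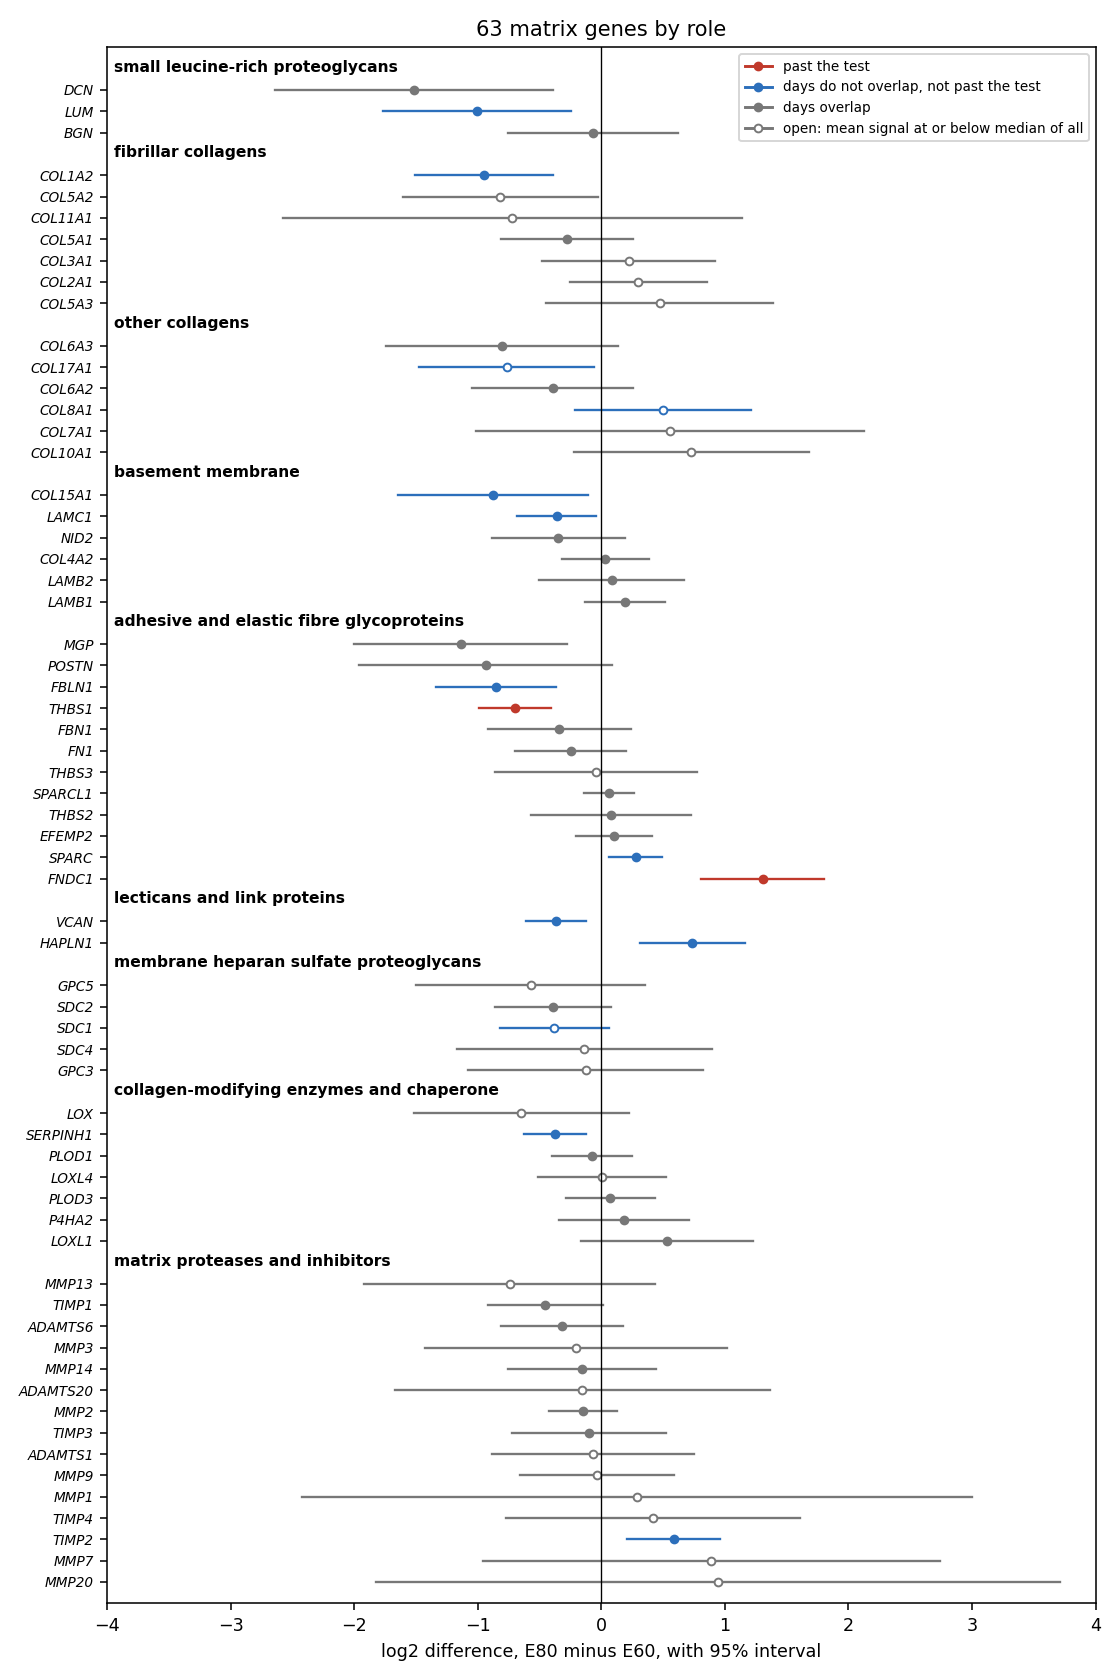
Log2 difference (E80 minus E60) of the 63 matrix genes by role, with the 95% interval from limma; red genes passed the test, blue genes have no overlap between the days without passing, and grey genes overlap. Open points are the genes that do not exceed the median probe set's signal. FNDC1 stands at 1.30 and THBS1 at -0.70, and most other intervals include 0.

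The signal of FNDC1 was 103, 133 and 125 in the E80 embryos, against 40.2, 43.6 and 64.6 in the E60 embryos. Every E80 embryo was above every E60 embryo. The mean was 120.2 ± 15.8 at E80 and 49.5 ± 13.2 at E60 (SD, n = 3 each), a log2 change of 1.30 (standard error 0.22, 95% interval 0.81 to 1.80, limma adjusted p = 0.0302). The call did not pass without E80 embryo 1, 2 or 3 (adjusted p = 0.0976, 0.0664 and 0.0791) or without E60 embryo 1 or 2 (0.109 and 0.134), with a log2 difference of 1.17 to 1.41 in these fits, nor without an intensity trend in the variance (0.141).

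THBS1 had signals of 85.8, 77.8 and 81.0 at E80, against 130.2, 127 and 140 at E60. The spread within each day was small and the days were well apart. The mean was 81.5 ± 4.03 at E80 and 132 ± 6.65 at E60 (SD, n = 3 each), a log2 change of -0.70 (standard error 0.13, 95% interval -0.99 to -0.41, limma adjusted p = 0.0386). A further probe set of THBS1 also fell (log2 change -1.04, standard error 0.18, limma adjusted p = 0.0364), with 48.1, 42.2 and 44.7 at E80 and 91.8, 77.7 and 110.3 at E60. The other 3 probe sets of the gene are dim, with signals of at most 15.4, and had log2 differences of -0.30 to -0.03. The brightest probe set did not pass without any 1 of the embryos (adjusted p 0.0690 to 0.146), nor after quantile normalization (0.0645) or with all array medians made equal (0.0783), as the mean over its 5 probe sets (0.444) or without an intensity trend in the variance (0.129). Its paralogues THBS2 and THBS3 overlapped between the days, with log2 differences of 0.08 and -0.04.

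**Figure D2:**
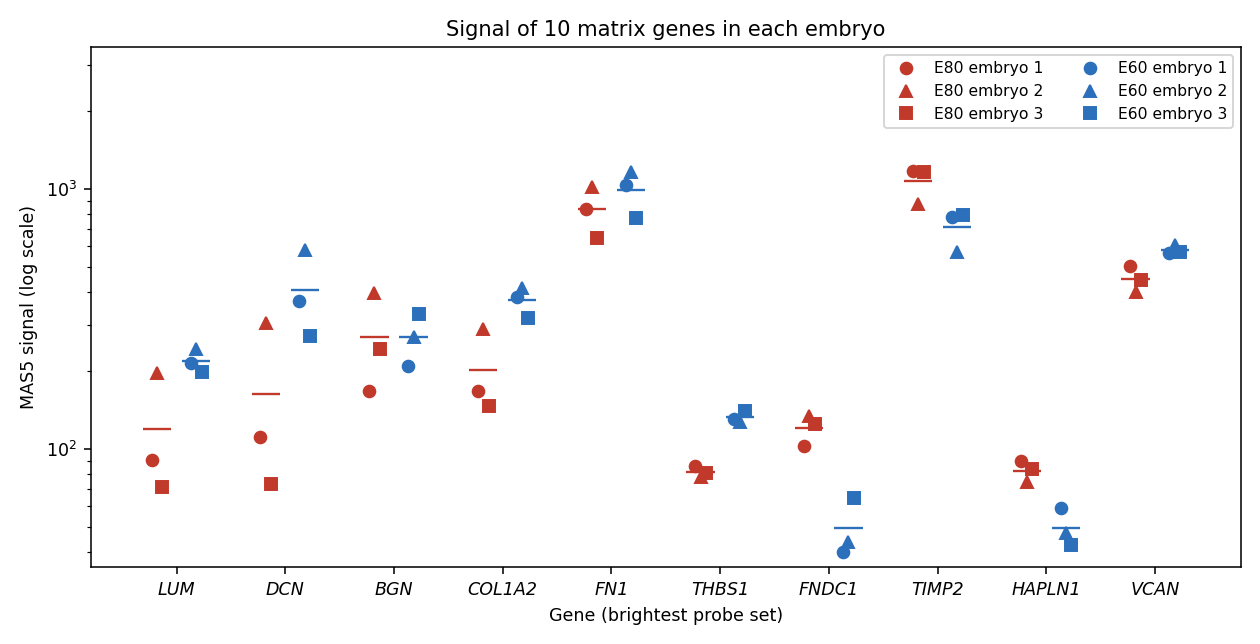
MAS5 signal (log axis) of 10 matrix genes in the E80 embryos (red, left in each pair) and the E60 embryos (blue), with the symbol shape giving the embryo and the bar the mean of the day. THBS1, FNDC1, TIMP2, HAPLN1, VCAN, LUM and COL1A2 separate the days without overlap, and DCN, BGN and FN1 do not. In LUM, DCN, BGN and COL1A2 E80 embryo 2 (triangle) lies apart from the other E80 embryos.

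Among the small leucine-rich proteoglycans, which bind collagen fibrils and set their width and spacing, decorin (DCN) and lumican (LUM) were lower at E80 in mean and did not pass, and biglycan (BGN) had a difference near 0. DCN had signals of 111, 305 and 73.0 at E80, against 369.6, 580.0 and 272 at E60. E80 embryo 2 lay within the E60 range and the other E80 embryos below it. The log2 difference was -1.52 (standard error 0.49, 95% interval -2.64 to -0.39, limma adjusted p = 0.156). The paper lists decorin as differentially expressed, by fold change and without naming a test. A second, very dim probe set of DCN, at signals of at most 1.93, differed by 3.54 (log2, adjusted p = 0.171), and the mean over both probe sets gave 1.01, so the direction for DCN depends on the probe set. LUM had signals of 90.4, 196 and 71.1 at E80, against 213, 241 and 198 at E60. The days did not overlap, but E80 embryo 2 was just below the lowest E60 embryo. The log2 difference of LUM was -1.004 (standard error 0.33, 95% interval -1.76 to -0.24, adjusted p = 0.163). BGN had signals of 167, 396 and 241 at E80, against 208, 270.1 and 330.0 at E60, with the highest and the lowest value both at E80. Its log2 difference was -0.07 (95% interval -0.76 to 0.62, adjusted p = 0.932), and it turned to 0.22 without E80 embryo 1, to 0.089 without E60 embryo 3 and to 0.045 with all array medians made equal.

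Fibrillar collagens form the tensile fibres of connective tissue. Of 7 measured of 11 listed, 0 rose and 0 fell, and their median log2 difference was -0.28. COL1A1, which the paper lists as differentially expressed, is not among the 7, so these counts do not cover the whole family. The gene for the type I collagen chain alpha 2 (COL1A2) had signals of 167, 290.0 and 146 at E80, against 384, 416 and 319 at E60. All E80 embryos lay below all E60 embryos, with E80 embryo 2 nearest. The log2 difference was -0.95 (standard error 0.24, 95% interval -1.51 to -0.39, adjusted p = 0.0906), and 0.080 as the mean with a second probe set whose signals were at most 8.83. COL5A2, a chain of the type V collagen that nucleates type I fibrils, had signals of 23.7, 44.8 and 20.3 at E80 and 53.8, 60.0 and 36.9 at E60 (log2 difference -0.82, adjusted p = 0.261). Its second, dimmer probe set went the other way (1.10, adjusted p = 0.288), so the direction for COL5A2 depends on the probe set. COL5A1 (log2 difference -0.28, adjusted p = 0.585) and the cartilage collagen COL2A1 (0.30, adjusted p = 0.569) overlapped between the days.

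The other collagens, 6 measured of 25 listed, were mostly dim, and 0 passed the test. COL21A1, which the paper lists as differentially expressed, is not among the 6. COL6A3, a chain of the beaded filaments of type VI collagen, had signals of 58.9, 143 and 39.5 at E80, against 107, 123 and 135 at E60. Its E80 embryos spanned the whole range, with embryo 2 above every E60 embryo (log2 difference -0.81, standard error 0.41, adjusted p = 0.352). COL6A2 had signals of 121, 129 and 151 at E80, against 143, 129 and 288 at E60, where embryo 3 alone was high (log2 difference -0.40, adjusted p = 0.515). COL17A1, a transmembrane collagen of epithelia, was lower in all E80 embryos (13.6, 25.0 and 16.1, against 33.5, 26.4 and 30.6 at E60, log2 difference -0.77, adjusted p = 0.242). COL8A1, a short-chain collagen of vessels, was higher in all of them (20.6, 23.5 and 16.0, against 11.7, 14.7 and 15.9 at E60, log2 difference 0.50, adjusted p = 0.444), and its 3 other probe sets had differences of -0.89 to 0.51. COL10A1 was also dim, at 6.48 to 19.7 (log2 difference 0.73, adjusted p = 0.405).

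Basement membrane genes, 6 measured of 23 listed, held 0 calls, and their differences were -0.88 to 0.19. COL15A1, a collagen that anchors basement membranes of vessels to the tissue, had signals of 22.3, 51.7 and 53.3 at E80, against 66.2, 71.0 and 80.9 at E60. All E80 embryos were lower, embryo 1 by the most (log2 difference -0.88, standard error 0.34, adjusted p = 0.220). LAMC1, the gamma chain of most laminins, had signals of 173, 165 and 158 at E80, against 228, 239 and 176 at E60. Here the days were also apart, by a narrow margin (log2 difference -0.36, standard error 0.14, adjusted p = 0.225). LAMB1, a beta chain that pairs with it, had a log2 difference of 0.19 (95% interval -0.13 to 0.52, adjusted p = 0.524). NID2, which links laminin to type IV collagen, had one of -0.35 (adjusted p = 0.484).

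In the adhesive and elastic fibre glycoproteins, 12 genes measured of 21 listed, the calls were FNDC1 and THBS1. Fibulin 1 (FBLN1), which binds fibronectin and elastic fibres, had signals of 213, 365 and 199 at E80, against 427, 459 and 466 at E60. The E60 embryos were close together and all above E80, and E80 embryo 2 was again the nearest (log2 difference -0.85, standard error 0.21, 95% interval -1.34 to -0.37, adjusted p = 0.0854). Matrix Gla protein (MGP), an inhibitor of calcification, had signals of 48.7, 97.0 and 33.2 at E80 and 113, 158 and 94.0 at E60 (log2 difference -1.14, adjusted p = 0.163). Periostin (POSTN), a matricellular protein of fibroblasts, had signals of 63.3, 231 and 92.9 at E80 and 220.1, 289.7 and 149.9 at E60 (log2 difference -0.94, adjusted p = 0.316). In both, E80 embryo 2 overlapped with E60 and the other E80 embryos did not. Fibronectin (FN1), the ligand of many integrins, had signals of 835, 1019 and 649 at E80, against 1034, 1163 and 770 at E60, and its days overlapped (log2 difference -0.25, standard error 0.20, 95% interval -0.70 to 0.20, adjusted p = 0.558). The 3 dimmer probe sets of FN1 had differences of -0.87 to 0.94 (adjusted p 0.512 to 0.619). Fibrillin 1 (FBN1), the core of microfibrils, had signals of 35.2, 69.1 and 49.3 at E80 and 62.3, 60.6 and 64.6 at E60 (log2 difference -0.34, adjusted p = 0.533). SPARC, a collagen-binding protein of vessels and glia, was higher in all E80 embryos by a small margin (1947, 2120 and 2279, against 1792, 1832 and 1612 at E60, log2 difference 0.28, standard error 0.09, adjusted p = 0.172).

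The hyaluronan-binding genes of neural matrix, 2 measured of 7 listed, differed in opposite directions in mean, and neither passed. The link protein gene HAPLN1, which fixes lecticans to hyaluronan, had signals of 89.4, 74.4 and 83.2 at E80, against 59.0, 47.5 and 42.7 at E60. All E80 embryos were higher, with little spread (log2 difference 0.74, standard error 0.18, 95% interval 0.31 to 1.16, adjusted p = 0.0870). Its second probe set had a difference of 0.73 (adjusted p = 0.161), also with no overlap. Versican (VCAN), the lectican of the embryonic brain, had signals of 504, 403 and 445 at E80, against 564, 606 and 569 at E60. All E80 embryos were lower (log2 difference -0.37, standard error 0.10, 95% interval -0.61 to -0.13, adjusted p = 0.116). Its 4 other probe sets also had differences below 0, of -2.72 to -0.12, and the -2.72 came from a very dim one, with signals of at most 7.82 (adjusted p = 0.0564).

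Among the proteases and their inhibitors, 15 genes measured of 51 listed, 0 passed. The tissue inhibitor TIMP2 had signals of 1173, 876 and 1162 at E80, against 782, 572 and 793 at E60. All E80 embryos were higher (log2 difference 0.58, standard error 0.16, 95% interval 0.21 to 0.96, adjusted p = 0.111), but a second probe set had a difference of 0.19 with overlap (adjusted p = 0.420). TIMP1, from another locus and inducible in many cells, had signals of 63.0, 80.2 and 102 at E80 and 106, 127 and 98.7 at E60 (log2 difference -0.46, adjusted p = 0.287). The gelatinase MMP2, which TIMP2 both inhibits and helps to activate, had a log2 difference of -0.15 (95% interval -0.43 to 0.13, adjusted p = 0.571), and the protease ADAMTS6 one of -0.32 (adjusted p = 0.490). Of these 15 genes, 9 are at or below the median signal.

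Enzymes and chaperones that process collagen, 7 genes measured of 12 listed with 0 calls, had differences of -0.65 to 0.53. SERPINH1, the collagen chaperone of the endoplasmic reticulum, had signals of 231, 286 and 248 at E80, against 314, 336 and 339 at E60. All E80 embryos were lower (log2 difference -0.37, standard error 0.11, 95% interval -0.63 to -0.12, adjusted p = 0.127). The cross-linking enzyme LOX had signals of 39.9, 56.9 and 21.9 at E80 and 65.2, 73.3 and 40.2 at E60 (log2 difference -0.65, adjusted p = 0.416), and its relative LOXL1 55.8, 89.1 and 113 at E80 and 52.9, 78.0 and 45.4 at E60 (0.53, adjusted p = 0.406). The prolyl hydroxylase P4HA2 had a log2 difference of 0.18 (adjusted p = 0.733), while its dimmer probe set was higher in all E80 embryos (21.2, 30.0 and 36.9, against 4.57, 12.3 and 7.61 at E60, log2 difference 1.93, adjusted p = 0.0682). The 5 membrane heparan sulfate proteoglycans measured (10 listed) all had differences below 0, of -0.57 (GPC5, adjusted p = 0.510) to -0.13, and 0 passed. Of all probe sets, 55.7% had differences below 0. Syndecan 1 (SDC1), a coreceptor for growth factors, was lower in all E80 embryos (37.3, 47.1 and 36.4, against 51.1, 53.6 and 51.5 at E60, log2 difference -0.38, adjusted p = 0.350), and syndecan 2 (SDC2) had a difference of -0.39 (adjusted p = 0.369).

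**Figure D3:**
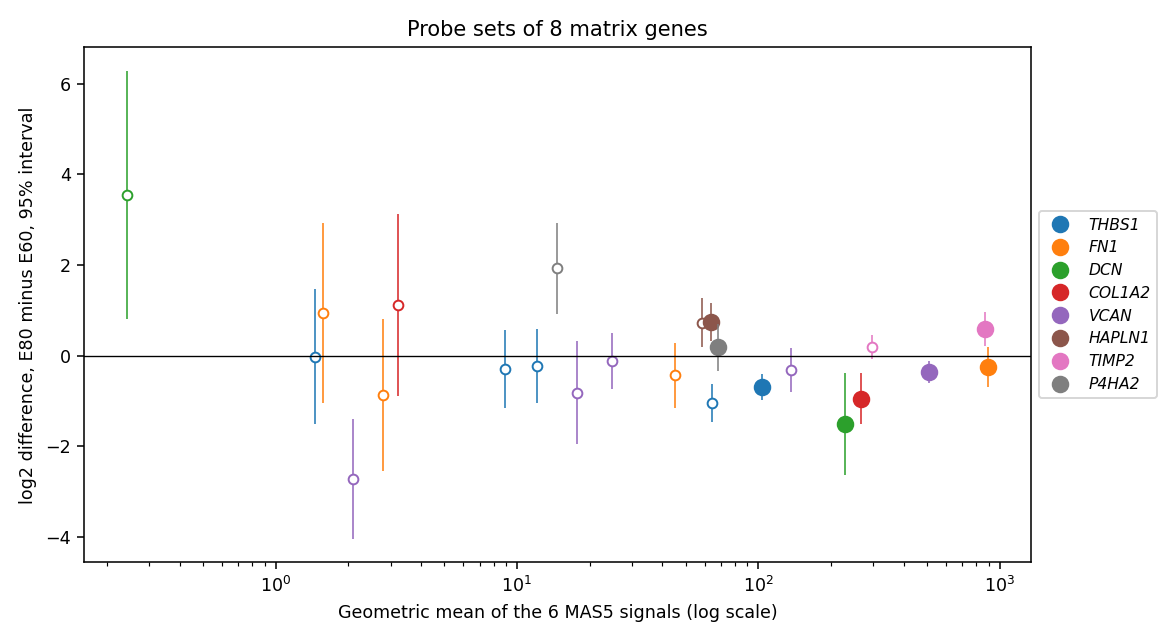
Log2 difference (E80 minus E60, 95% interval from limma) of each probe set of 8 matrix genes against its geometric mean signal over the 6 embryos (log axis); the large filled point is the brightest probe set of the gene and open points are its others. Probe sets at low signals have wide intervals and take either sign, as for DCN at 3.54 against -1.52 for its brightest one, while both probe sets of HAPLN1 lie at 0.73 and 0.74.

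In some matrix genes of fibroblasts, though not in all, E80 embryo 2 lay above the other E80 embryos. E80 embryo 2 was at least 2-fold above the mean log2 signal of the other E80 embryos in 12 of the 63 genes (19.0%, against 7.31% of all probe sets). With genes above the median signal only, these were 5 of 38 (13.2%, against 0.823% of all such probe sets), namely DCN, POSTN, COL6A3, LUM and MGP. E80 embryos 1 and 3 were that far above the others in 2 of the 63 genes each (3.17%, against 3.77% of all probe sets for embryo 1 and 6.38% for embryo 3) and in 0 of the 38 (against 0.264% for embryo 1 and 1.22% for embryo 3). For DCN the log2 signal of E80 embryo 2 was 1.76 above the others, for POSTN 1.59, for COL6A3 1.57, for LUM 1.29 and for MGP 1.27. FBLN1 (0.82), COL1A2 (0.89) and BGN (0.98) were below this limit. The SD of the log2 signals of LUM was 0.77 at E80 and 0.14 at E60, and that of COL6A3 was 0.95 at E80 and 0.17 at E60. The contrast was smaller in the others, at 1.06 and 0.55 for DCN, 0.96 and 0.48 for POSTN and 0.78 and 0.38 for MGP. THBS1 (-0.10), HAPLN1 (-0.21), VCAN (-0.24) and TIMP2 (-0.41) were not raised in E80 embryo 2. Nor was the type III collagen gene COL3A1, a defining fibroblast product, with 61.1, 56.1 and 42.3 at E80 and 60.0, 52.9 and 28.9 at E60. The embryo was singled out after its values were seen, so these are descriptions with no test.

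**Figure D4:**
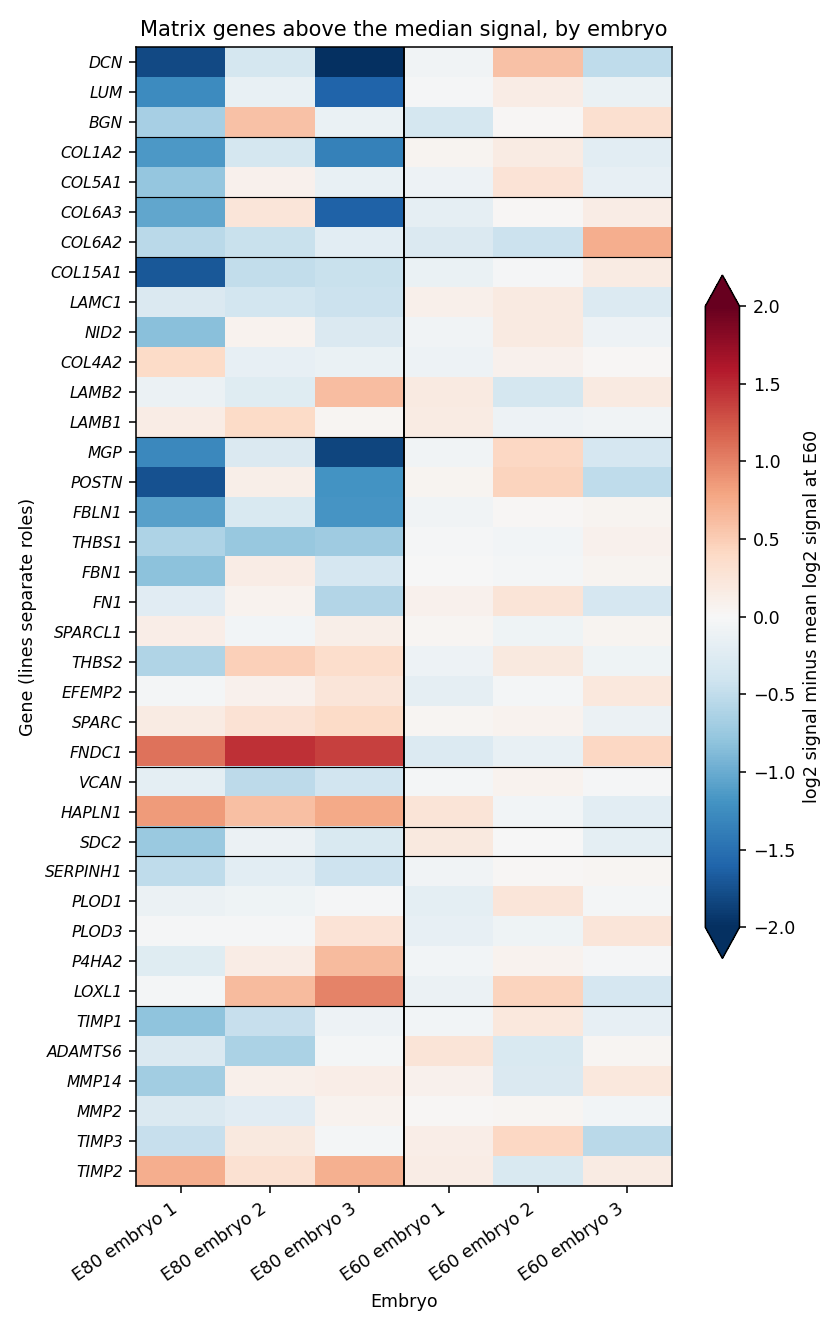
Log2 signal of the 38 matrix genes above the median signal in each embryo (E80 left of the line, E60 right), minus the mean log2 signal of the gene at E60; blue is lower, red is higher, and colours are clipped at the ends of the scale. DCN, LUM, COL1A2, COL6A3, MGP, POSTN and FBLN1 are blue in E80 embryos 1 and 3 and nearer to the E60 level in E80 embryo 2, whereas FNDC1, HAPLN1 and TIMP2 are red in all E80 embryos.

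Without E80 embryo 2, 6 of the 63 genes passed the test as lower at E80 (9.52%, against 0.788% of all probe sets in that fit) and 0 as higher. FBLN1 then had a log2 difference of -1.13 (standard error 0.10, limma adjusted p = 0.0167), LUM -1.43 (standard error 0.16, adjusted p = 0.0274) and COL1A2 -1.25 (standard error 0.15, adjusted p = 0.0293). DCN had -2.10 (standard error 0.32, adjusted p = 0.0397), COL6A3 -1.33 (standard error 0.22, adjusted p = 0.0432) and MGP -1.56 (standard error 0.28, adjusted p = 0.0489). FBLN1, LUM, COL1A2, DCN and COL6A3 are known products of fibroblasts, and MGP is known from vascular smooth muscle and cartilage. Leaving out the embryo with the highest E80 values widens these differences and narrows the spread by construction, and with all embryos 0 of the 6 passed (adjusted p 0.0854 to 0.352). Without E80 embryo 1 or 3, or E60 embryo 1 or 2, 0 of the 63 passed, and without E60 embryo 3 only FNDC1 did. Without E80 embryo 3 the 6 genes had differences of -1.07 (DCN) to -0.40 (COL6A3), with adjusted p of 0.171 to 0.632.

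**Figure D5:**
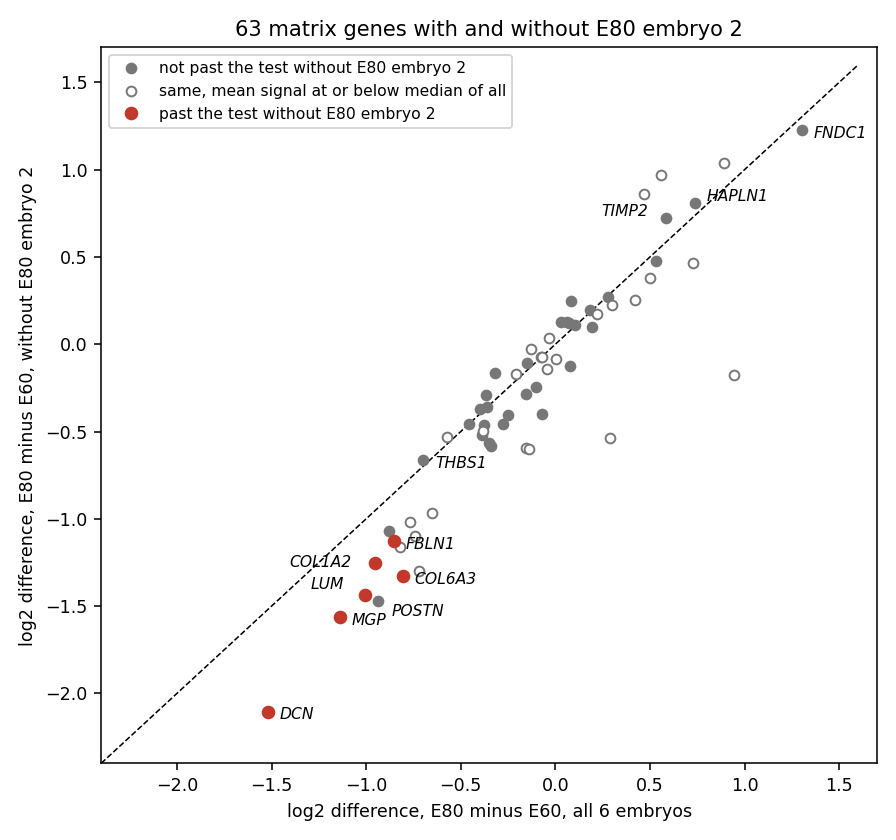
Log2 difference (E80 minus E60) of the 63 matrix genes without E80 embryo 2 (vertical axis) against that with all 6 embryos (horizontal axis); the dashed line marks equal values, red genes passed the test without that embryo and open points do not exceed the median probe set's signal. The 6 red genes lie below the line, with DCN at -2.10 without the embryo and -1.52 with it, while FNDC1 and THBS1 lie near the line.

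Some markers of meninges were higher in this embryo too. Of 17 meningeal markers listed, 5 were measured, and all 5 had their highest E80 signal in E80 embryo 2, as did 40.7% of all probe sets. For BMP7, a growth factor of the meninges, the margin was small (53.8, 66.3 and 65.4 at E80, against 60.5, 63.7 and 57.8 at E60). CRABP2, a retinoic acid binding protein of the meninges, had signals of 45.3, 257 and 21.3 at E80, against 194, 324 and 200.5 at E60 (log2 difference -1.89, adjusted p = 0.249, with -2.91 without E80 embryo 2, adjusted p = 0.0309, and -1.11 without E80 embryo 3, adjusted p = 0.454). The paper lists CRABP2 as differentially expressed, by fold change. The chemokine CXCL12, by which meninges guide migrating neurons, had signals of 70.4, 218 and 49.6 at E80, against 177, 134 and 176 at E60 (-0.82, adjusted p = 0.415, with -1.44 without E80 embryo 2, adjusted p = 0.0367, and -0.38 without E80 embryo 3, adjusted p = 0.727). The anion transporter SLC22A6 had signals of 67.2, 127 and 67.6 at E80, against 122, 121 and 84.0 at E60 (adjusted p = 0.539). PTGDS, the prostaglandin synthase of the leptomeninges that oligodendrocytes also express, had 1376, 2354 and 1527 at E80, against 1074, 1163 and 1526 at E60 (0.46, adjusted p = 0.300). The summed signal of the 5 genes was 1613, 3023 and 1731 at E80 and 1627 to 2043 at E60, most of it from PTGDS. Of 9 measured fibroblast markers of 14 listed, 6 were highest at E80 in embryo 2, but COL1A2, COL3A1, DCN and LUM among the 9 are matrix genes already described. The other 5 (DPT, FAP, PDGFRB, PRRX1 and S100A4) summed to 319, 408 and 416 at E80 and 368 to 453 at E60. Embryo 2 did not stand out in this sum, but most of it came from PDGFRB. PRRX1, DPT and S100A4 were highest at E80 in embryo 2, whose log2 signal was 1.47, 0.378 and 0.295 above the others. These genes were dim, with signals of at most 37.2. FAP was lowest at E80 in embryo 2 (33.8, 28.1 and 45.3), and PDGFRB was highest in embryo 3 (247, 322 and 346).

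The lists of other cells differed in how E80 embryo 2 stood to the other E80 embryos. It was the highest at E80 in 6 of 13 endothelial genes, 1 of 7 pericyte and smooth muscle genes, 4 of 5 blood genes and 0 of 5 choroid plexus genes. The summed signal of 13 measured endothelial markers of 14 was 1591, 1753 and 1551 at E80 and 1893 to 2084 at E60, and that of 7 of 11 pericyte and smooth muscle markers was 829, 917 and 850 at E80 and 897 to 1213 at E60. Neither list held a call, and 11 of the 13 endothelial genes and 6 of the 7 pericyte genes had differences below 0. So did 55.7% of all probe sets and 3388 of the 6765 genes by their brightest probe set. Some of these differences were near 0, as for ERG (-0.006) and TAGLN (-0.003). The brain endothelial glucose transporter SLC2A1 had signals of 242, 190.5 and 252 at E80, against 303, 351 and 316 at E60 (log2 difference -0.51, adjusted p = 0.0934), and the smooth muscle actin ACTA2 144, 228 and 122 at E80, against 408, 176 and 367 at E60 (-0.90, adjusted p = 0.213). The tight junction gene CLDN5 (-0.24, adjusted p = 0.315), the cadherin CDH5 (-0.48, adjusted p = 0.227) and the VEGF receptor KDR (-1.52, adjusted p = 0.141) did not pass either. Blood genes, 5 of 11, summed to 1112, 1268 and 1036 at E80 and 1139 to 1248 at E60, most of it from HBB, with AHSP at a difference of 0.88 (adjusted p = 0.616). The median log2 distance of E80 embryo 2 from the other E80 embryos was 0.61 over the 5 blood genes, 0.92 over the 5 meningeal genes and 0.38 over the 9 fibroblast genes. Choroid plexus genes, 5 of 11, summed to 112, 197 and 5466 at E80 and 90.3 to 176 at E60. All 5 (TTR, ENPP2, AQP1, FOLR1 and PRLR) were highest at E80 in embryo 3, though PRLR was very dim (2.52, 1.88 and 3.08). MAS5 signals are never 0, so a marker near 0 appears here only as a low signal. What part any of these cell types has in the differences of the matrix genes was not tested.

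Of 33 genes that act with the matrix and lie outside the pattern, 3 passed the test (9.09%, against 1.95% of all probe sets). Of all genes by their brightest probe set, 1.49% rose and 1.05% fell. The lists of these 33 genes were made with earlier results of the arrays known, so their share cannot be read as an excess. Of 14 other matrix proteins measured of 36 listed, 1 rose and 1 fell, against 0.933% and 1.01% of all probe sets. Tenascin C (TNC), an anti-adhesive glycoprotein of radial glia and astrocytes, rose, with 263, 239 and 185 at E80 and 130.0, 85.8 and 127 at E60 (log2 change 1.01, standard error 0.20, limma adjusted p = 0.0494). Midkine (MDK), a heparin-binding growth factor of neural progenitors, fell, with 264, 394 and 296 at E80 and 589.9, 588 and 576 at E60 (log2 change -0.90, standard error 0.15, adjusted p = 0.0281). The microfibril protein MFAP2 was lower in all E80 embryos without passing (50.5, 59.2 and 68.5, against 91.0, 91.9 and 209 at E60, log2 difference -1.03, adjusted p = 0.142). Of 8 measured genes of TGF-beta signalling (19 listed), the type I receptor TGFBR1 fell, with 132, 106 and 139 at E80 and 222, 238 and 197 at E60 (log2 change -0.81, standard error 0.14, adjusted p = 0.0361). The paper also lists this receptor as differentially expressed. Its mediator SMAD4 (-0.46, adjusted p = 0.0729) and the matricellular target CYR61 (-0.64, adjusted p = 0.214) were lower in all E80 embryos and did not pass. Of 11 measured matrix receptors (26 listed), 0 rose and 0 fell, and the nearest was integrin beta 1 (ITGB1), the shared chain of most matrix integrins, with 509, 524 and 483 at E80 and 651, 651 and 628 at E60 (-0.35, standard error 0.08, adjusted p = 0.0737). TNC did not pass without any 1 of the embryos (adjusted p 0.0582 to 0.177), TGFBR1 likewise (0.0516 to 0.152), and MDK passed without E80 embryo 2 and not without any other (0.0591 to 0.127). Further settings ended these calls too. TNC did not pass with 32 added to each signal (0.0578) or without an intensity trend (0.174), TGFBR1 with all array medians made equal (0.0591), as the mean over its probe sets (0.224) or without a trend (0.149), and MDK without a trend (0.151).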

How the data were processed

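Total RNA of the cerebral cortex of 6 pig embryos was measured, 3 at E80 and 3 at E60, with 1 array each. MAS5 signals were deposited as linear intensity values, 1 per probe set. The authors' software scaled each array, and the mean of the middle 96% of signals is 150.02 on every array. No source used here gives the MAS5 version or a genome build, and detection calls are given only as totals per array. Days were taken from the labels, and embryos are numbered in accession order within a day. The number of arrays limits the precision.

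Log2 signals were taken without a pseudocount. Of 24123 probe sets, 124 controls were left out. Of the 23999 tested, 10069 have 1 symbol in the platform annotation, 198 several and 13732 none, and all 63 matrix genes were found by Entrez number with the same symbol in RefSeq (Sscrofa11.1). limma 3.58.1 in R 4.3.3 (lmFit, eBayes with an intensity trend) compared E80 with E60, with Benjamini-Hochberg adjustment over the 23999. On simulated data of this comparison with 23999 probe sets, it found 97 of 100 changes of 2-fold and 100 of 100 of 3-fold, with 5 false calls among 202. All changed probe sets there were brighter than the median, and noise was Gaussian at the median SD of probe sets of like signal. Genes with a wider spread, or with 1 embryo apart as in DCN and LUM, were not simulated. These rates are therefore not the power for such genes or for dim ones. Different probe sets of a gene are given where they differ. Alternatives were quantile normalization, equal array medians, an offset of 32, only the brightest 66% of probe sets, other variance models, all probe sets of a gene, and leaving out each embryo.

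Named genes are LUM, THBS1, FN1, BGN, COL1A2, DCN and FNDC1, genes past the test, up to 3 of each role by smallest unadjusted p, up to 5 of each direction by largest difference among brighter genes whose days do not overlap, in each further list those past the test or else the one with the smallest p, and further probe sets of the first 7 and of the called genes. Other genes and probe sets named were chosen after their values were seen. The matrix genes and all lists were chosen with earlier results of these data known.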

Additional observations from a re-analysis of the deposited data

How the results depend on the processing

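Over 75 results for single probe sets that were refitted under each alternative and 939 alternative values, 868 kept direction and side of the threshold, 48 lost the call, 8 gained it and 15 changed sign, and the cause was not tested. With all embryos 224 probe sets rose and 243 fell. These counts were 353 and 410 among the brightest 66%, 311 and 108 with equal array medians, 0 and 0 without an intensity trend, and 0 to 178 and 1 to 189 with 1 embryo left out. Among the matrix genes 1 rose and 1 fell. With 1 embryo left out, 0 to 1 rose and 0 to 6 fell, and without an intensity trend 0 did either, though 13 had an unadjusted p under 0.05. The count that fell was 0 after quantile normalization, with equal array medians or with the mean over the probe sets of a gene, and 2 with all 121 probe sets counted. The median difference of -0.14 ran from -0.25 to -0.04 with 1 embryo left out, and was -0.050 after quantile normalization, -0.024 with equal array medians and -0.064 with 32 added.

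With 1 embryo left out, 22 of the 63 matrix genes changed sign in at least 1 fit, THBS2, THBS3 and COL3A1 among them. Averaging probe sets gave 0.080 for COL1A2, -0.044 for COL2A1, 0.14 for COL5A2, 1.01 for DCN, 0.010 for LOX and -0.035 for COL8A1. With all array medians made equal, BGN was at 0.045 and the dimmest probe set of THBS1 at 0.090, and that probe set was at 0.0015 with 32 added. With 1 embryo left out, BGN ran from -0.40 to 0.22, P4HA2 from -0.045 to 0.39, AHSP from -0.16 to 1.53 and the dimmest probe set of THBS1 from -0.30 to 0.35. No paired analysis was possible because the labels give no replicate numbers that the days share. Dim probe sets have wide errors, and 25 of the 63 genes are at or below the median signal.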
